A study of Mus musculus with 8 samples.

Results

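De novo lipogenesis is the building of fatty acids from acetyl-CoA in the cytosol of the hepatocyte. Its 10 genes described here were fixed by name as Srebf1, Thrsp, Acly, Acaca, Acacb, Fasn, Elovl6, Scd1, Me1 and Pnpla3, and every non-control probe carrying one of these names on the array was taken, 23 probes in all. Of the 10 genes, 9 cleared the filter on dim probes, which asks for signal well above background on 4 or more arrays, and were tested, among 17565 tested genes out of 36666 names on the array. Pnpla3 was above background on no array.

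The RNA came from livers of male mice aged 80 weeks (80W, 4 samples) and of male mice aged 8 weeks (8W, 4 samples), all taken 8 h after acetaminophen, a drug whose oxidised product injures hepatocytes. Both ages carried the drug, and untreated livers were not analysed here, so an age difference at rest and an age-dependent response to the drug cannot be told apart. The dose, the mouse strain, the feeding state and whether each sample was a separate animal are not given in the sources used here. The p-values therefore speak for the spread among these 8 samples, part of which may be technical. Whole liver was measured, and in such bulk samples fewer cells of a type and less RNA per cell cannot be told apart.

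In the pathway, the transcription factor SREBP-1, encoded by Srebf1, switches on the lipogenic genes, and in liver its 1c form is itself raised by insulin and by the oxysterol receptor LXR. ATP citrate lyase makes acetyl-CoA, the acetyl-CoA carboxylases make malonyl-CoA, fatty acid synthase joins the carbon units into palmitate, and Elovl6 and Scd1 lengthen and desaturate the product. Malic enzyme supplies NADPH. Thrsp, also called Spot 14, is a small protein that rises with feeding and thyroid hormone, and Pnpla3 is a lipid droplet protein whose gene is a target of SREBP-1c.

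Each value below is the log2 of a spot's signal relative to the 75th percentile of its array, and each difference is 80W minus 8W. All 8 arrays lay on 1 slide and in 1 scan. The 80W samples filled row 2 and the 8W samples row 1. Position on the slide and age thus cannot be told apart. The 75th percentile ran from 154.7 to 264.8 intensity units on the 80W arrays and from 178.2 to 352.8 on the 8W arrays, and no non-control spot was saturated. On the first principal component, which held 49.1% of the variance of the tested genes, 8W replicates 1 and 2 lay at -61.3 and -99.2. The other arrays lay between 10.2 and 47.5. The lipogenesis genes and the medians of the gene lists are therefore given with and without these 2 arrays. Hepatocyte markers were high in both groups: the summed level of 7 tested markers was 2972 to 4983 times the 75th percentile in 80W livers and 2227 to 4320 times in 8W livers. Their median difference was 0.15 with 6 of 7 positive, and -0.12 with 1 of 7 positive without 8W replicates 1 and 2.

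The promoters of Srebf1, Thrsp and Fasn are shown because the first pair had the lowest p of the 10 genes while Fasn, the central enzyme, differed little. RefSeq (GRCm38.p6) gave 12 windows for 9 of the 10 genes, and the 250 bases before each start were read. Capitals mark CCAAT boxes on either strand, the letters bound by NF-Y, a partner of SREBP in lipogenic promoters.
Srebf1, chr11:60210472-60210721, minus strand: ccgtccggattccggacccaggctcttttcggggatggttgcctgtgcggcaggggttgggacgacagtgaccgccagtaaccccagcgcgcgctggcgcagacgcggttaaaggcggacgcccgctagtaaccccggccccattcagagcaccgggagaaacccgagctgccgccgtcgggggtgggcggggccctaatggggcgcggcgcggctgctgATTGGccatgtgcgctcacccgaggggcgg
Thrsp, chr7:97417551-97417800, minus strand: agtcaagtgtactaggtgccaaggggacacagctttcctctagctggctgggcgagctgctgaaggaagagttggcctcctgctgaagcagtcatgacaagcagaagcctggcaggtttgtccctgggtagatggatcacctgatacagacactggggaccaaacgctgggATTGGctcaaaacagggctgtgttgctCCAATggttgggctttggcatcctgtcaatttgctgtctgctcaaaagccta
Fasn, chr11:120824548-120824797, minus strand: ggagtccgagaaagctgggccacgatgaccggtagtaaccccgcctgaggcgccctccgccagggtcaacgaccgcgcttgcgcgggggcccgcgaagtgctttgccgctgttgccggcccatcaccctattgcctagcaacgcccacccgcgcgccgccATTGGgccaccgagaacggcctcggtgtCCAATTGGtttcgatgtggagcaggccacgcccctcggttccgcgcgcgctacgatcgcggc

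The Srebf1 window is the most downstream of 3 for that gene, and its CCAAT box begins 30 bases before the start. Thrsp held CCAAT boxes 79 and 52 bases before its start, and Fasn held them at 90, 62 and 59, the last 2 overlapping. A CCAAT box was present in 7 of the 12 windows of these genes and in 33.8% of all 32851 windows of that length. The sterol regulatory element searched as TCACNCCAC, on both strands, was in 0 of the 12 windows and in 1.05% of all windows. The E-box of the form CACGTG was in 0 of the 12 and in 6.02% of all. At such low shares among all windows, 0 of 12 says little about these genes. Sites further from the start or spelled otherwise were not searched. These matches are letters only and were not set against any measurement of binding.

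None of the 9 tested lipogenesis genes passed the threshold of 0.05 on the adjusted p in either direction (limma, adjusted by Benjamini-Hochberg over all 17565 genes). In the whole comparison 0.359% of genes were called, 58 higher (0.33%) and 5 lower (0.0285%) in 80W livers. At an unadjusted p under 0.05, Srebf1 and Thrsp were higher and 0 of the 9 were lower, against 7.91% higher and 6.14% lower among all genes. The differences of the 9 ran from -0.68 for Elovl6 to 2.61 for Thrsp, with a median of 0.32 and 5 of 9 positive. Over all tested genes the median was 0.02 and 52.0% were positive. Without 8W replicates 1 and 2 the median of the same 9 genes was -0.16, with 4 of 9 positive and again 0 called. For 0 of the 9 genes did the values of the 2 ages lie fully apart, which happened for 8.38% of all genes (4.62% with 80W higher and 3.76% with 80W lower).

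**Figure D1:**
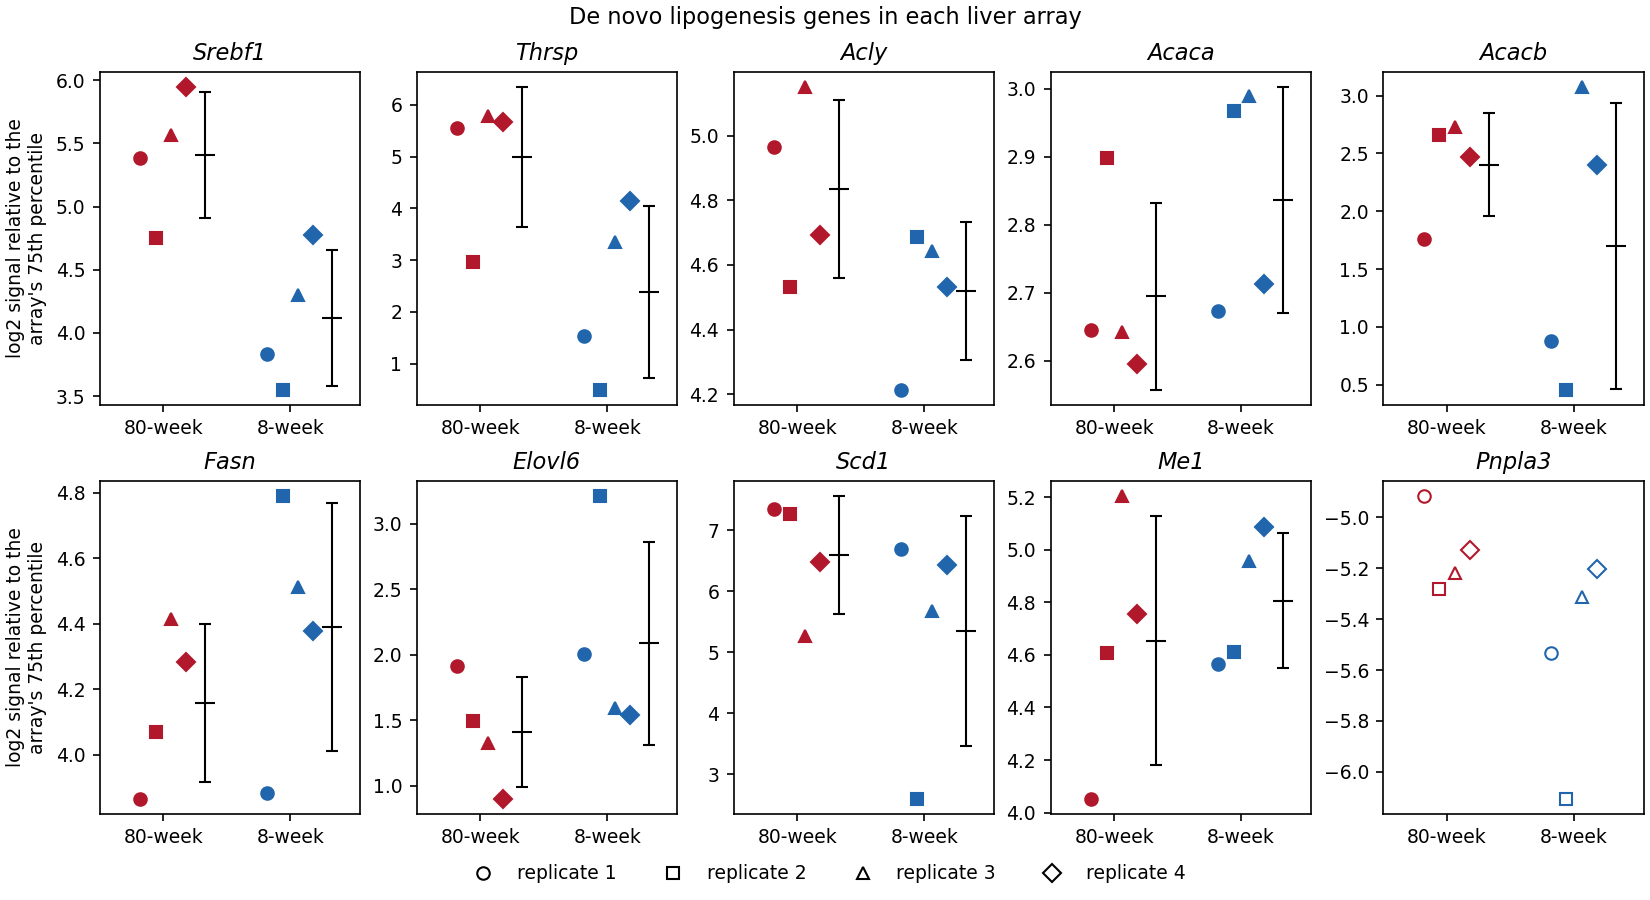
Log2 signal relative to the array's 75th percentile for each of the 10 genes, with 80-week livers on the left and 8-week livers on the right of each panel. Marker shape gives the replicate, filled markers were above background and open ones were not, and the bar is the mean ± SD of 4 arrays. Srebf1 and Thrsp sit higher on most 80-week arrays, 8-week replicate 2 is far below the others for Scd1, and all Pnpla3 markers are open.

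Srebf1 had values of 5.38, 4.75, 5.57 and 5.94 in 80W replicates 1 to 4, against 3.83, 3.55, 4.30 and 4.78 in 8W replicates 1 to 4. The groups touched at 1 point only, where 80W replicate 2 (4.75) lay just under 8W replicate 4 (4.78). Its mean was 5.41 ± 0.50 in 80W and 4.12 ± 0.54 in 8W livers (SD, n = 4 each), a difference of 1.29 (SE 0.33), or 2.45-fold. The adjusted p from limma was 0.172, and the 95% interval of this single difference, not adjusted for the number of genes, was 0.55 to 2.03. Without 8W replicates 1 and 2 the difference was 0.87 (SE 0.34, limma adjusted p = 0.532), still positive. The 1 Srebf1 probe lies on chromosome 11, 60013214 to 60013273 (mm9, minus strand), near the end of the transcript at base 3639, so it does not part the 1a and 1c forms.

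Thrsp showed the widest separation of the means. Its values were 5.55, 2.97, 5.78 and 5.66 in 80W replicates 1 to 4, against 1.54, 0.50, 3.35 and 4.14 in 8W replicates 1 to 4. The 80W replicates 1, 3 and 4 stood above every 8W array, while 80W replicate 2 lay between 8W replicates 1 and 3. The mean was 4.99 ± 1.35 in 80W and 2.38 ± 1.66 in 8W livers (SD, n = 4 each), a difference of 2.61 (SE 0.87, limma adjusted p = 0.283), or 6.10-fold. Its 95% interval was 0.66 to 4.56, and the spread within 8W livers was larger than that of 99.4% of all tested genes. Without 8W replicates 1 and 2 the difference was 1.25 (SE 0.82, limma adjusted p = 0.686).

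Thrsp was read by 2 probes. The second is shown because it repeats the result at another place of the transcript, starting at base 439 rather than 836 (chr7:104565562-104565621, mm9, minus strand).
Thrsp probe: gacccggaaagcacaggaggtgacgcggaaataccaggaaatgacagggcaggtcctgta

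That probe gave 4.15, 1.59, 4.46 and 4.24 in 80W livers, against 0.26, -1.03, 1.91 and 2.77 in 8W livers, a difference of 2.63 (SE 0.87). The order of the arrays was nearly the same for Srebf1 and Thrsp. In both, 8W replicate 2 was lowest, 8W replicate 1 next, and 80W replicates 1, 3 and 4 were the top 3. Lpin1, Abcg5 and Abcg8, described below, had the same arrays at both ends. 8W replicates 2 and 1 were also lowest on the first principal component of all tested genes (-99.2 and -61.3). The share of all genes with this order was not counted, so nothing particular to this pair can be read from it.

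Acly, which splits citrate into acetyl-CoA and oxaloacetate, had values of 4.97, 4.53, 5.15 and 4.69 in 80W livers, against 4.21, 4.69, 4.64 and 4.53 in 8W livers. The 80W replicates 1 and 3 stood clear of the 8W arrays, and 80W replicate 4 was level with the highest of them. Its means were 4.84 ± 0.28 in 80W and 4.52 ± 0.21 in 8W livers (SD, n = 4 each), a difference of 0.32 (SE 0.21, limma adjusted p = 0.481). The 95% interval was -0.14 to 0.78, and the difference was 0.25 without 8W replicates 1 and 2.

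Acaca encodes the cytosolic acetyl-CoA carboxylase that makes malonyl-CoA for synthesis. Its brightest probe gave 2.65, 2.90, 2.64 and 2.59 in 80W livers, against 2.67, 2.97, 2.99 and 2.71 in 8W livers. It was the steadiest of the 9 genes within both ages, with an SD of 0.14 in 80W and 0.17 in 8W livers. The difference was -0.14 (SE 0.17, limma adjusted p = 0.718), with an interval of -0.53 to 0.25, and -0.16 without 8W replicates 1 and 2. Of 7 Acaca probes 3 were tested, and their differences of -0.14, -0.15 and -0.10 had the same sign. The 4 others were above background on at most 1 array.

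Acacb encodes the carboxylase at the mitochondrial surface, whose malonyl-CoA restrains fatty acid oxidation. The brightest of its probes, at base 8419 of the transcript, gave 1.76, 2.66, 2.73 and 2.47 in 80W livers, against 0.88, 0.46, 3.07 and 2.40 in 8W livers. The low 8W arrays were replicates 1 and 2, and the other 2 were within or above the 80W range. The difference was 0.70 (SE 0.55, limma adjusted p = 0.557), and it turned to -0.33 (SE 0.33) without these 2 arrays and to -0.05 when arrays were weighted by quality.

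The Acacb probes also disagreed. The probe below, from the middle of the transcript at base 3778 (chr5:114667674-114667733, mm9, plus strand), is shown because it did not repeat the 3-prime value.
Acacb probe: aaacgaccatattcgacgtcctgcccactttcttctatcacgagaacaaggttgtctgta

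It read 2.03, 0.75, 0.45 and 0.55 in 80W livers, against 1.19, 0.00, 1.16 and 1.33 in 8W livers, a difference of 0.02 (SE 0.41). On this probe 8W replicate 1 was not low, while 8W replicate 2 was the lowest of all 8 arrays. Another probe, near the start of the transcript, gave a difference of 0.26 (SE 0.21).

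Fasn encodes the multifunctional fatty acid synthase. Its values were 3.87, 4.07, 4.42 and 4.28 in 80W livers, against 3.88, 4.79, 4.51 and 4.38 in 8W livers. The lowest array of each group was replicate 1, and the 8W values spread over and above the 80W ones. The means were 4.16 ± 0.24 in 80W and 4.39 ± 0.38 in 8W livers (SD, n = 4 each), a difference of -0.23 (SE 0.23, limma adjusted p = 0.656). Its interval was -0.76 to 0.29, and the difference was -0.29 without 8W replicates 1 and 2.

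Within an array, scaling cancels, so Srebf1 could also be read relative to Fasn, a pair chosen after the values were seen. Srebf1 minus Fasn was 1.51, 0.68, 1.15 and 1.66 in 80W livers, against -0.05, -1.24, -0.21 and 0.40 in 8W livers. The groups did not overlap. Against that background, the same held for Srebf1 minus 45.7% of all other tested genes, so nothing particular to Fasn can be read from it. Srebf1 minus Scd1 averaged -1.19 ± 1.29 in 80W and -1.23 ± 1.59 in 8W livers (SD, n = 4 each) and overlapped.

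Elovl6 extends palmitate to stearate. It had 1.92, 1.49, 1.33 and 0.90 in 80W livers, against 2.01, 3.21, 1.60 and 1.54 in 8W livers. The 8W group owed its higher mean mostly to replicate 2. The difference was -0.68 (SE 0.38, limma adjusted p = 0.431), -0.31 without 8W replicate 2 and -0.16 without 8W replicates 1 and 2.

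Scd1 encodes the main hepatic stearoyl-CoA desaturase, which turns stearate into oleate. Its values were 7.35, 7.27, 5.27 and 6.49 in 80W livers, against 6.69, 2.60, 5.67 and 6.44 in 8W livers. Apart from 8W replicate 2, the 8W arrays lay inside the 80W range. The means were 6.60 ± 0.96 in 80W and 5.35 ± 1.88 in 8W livers (SD, n = 4 each), a difference of 1.25 (SE 0.86, limma adjusted p = 0.507) with an interval of -0.68 to 3.17. Without 8W replicate 2 the difference was 0.33, and without 8W replicates 1 and 2 it was 0.54. A second probe filed under Scd1 was dimmer and gave -0.43, -0.57, -1.86 and -1.93 in 80W livers, against -1.42, -6.08, -2.67 and -1.97 in 8W livers, where replicate 2 was again lowest and not above background. Its listed coordinates run along the opposite strand to the first probe, so it may not read the same transcript.

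Me1, the cytosolic malic enzyme, makes NADPH for fatty acid synthesis. It had 4.05, 4.61, 5.20 and 4.75 in 80W livers, against 4.57, 4.61, 4.96 and 5.09 in 8W livers. The 80W arrays lay on both sides of the 8W range. The difference was -0.15 (SE 0.26, limma adjusted p = 0.805), and a second probe gave -0.10. Leaving out 80W replicate 1, the lowest array, turned the first value to 0.05, and leaving out 8W replicates 1 and 2 made it -0.37.

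Pnpla3 was covered by 2 probes. Neither was well above background on any of the 8 arrays, so no difference is given.

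**Figure D2:**
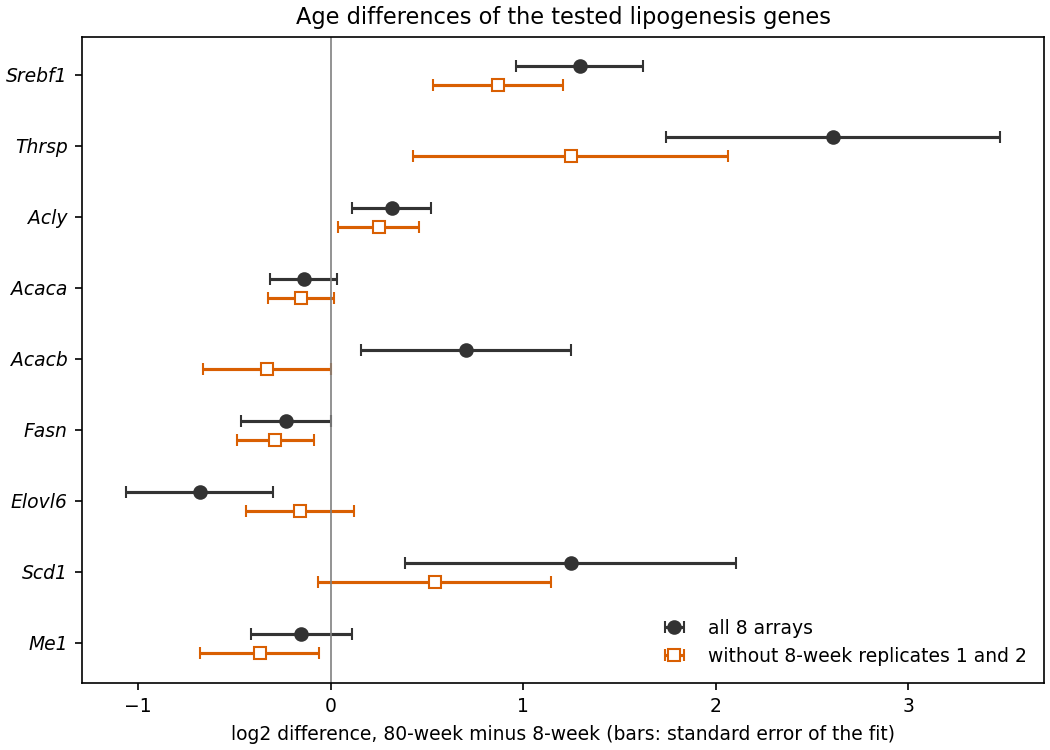
Log2 difference between 80-week and 8-week livers for the 9 tested genes, with all 8 arrays (filled circles) and without 8-week replicates 1 and 2 (open squares). Bars are the standard error of the limma fit. Srebf1 is at 1.29 and 0.87 and Thrsp at 2.61 and 1.25, Acacb changes sign from 0.70 to -0.33, and Fasn, Acaca and Acly move little.

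The 9 genes did not vary together from array to array. Relative to each gene's own mean, 8W replicate 2 was 3.37 lower for Scd1 and 3.19 lower for Thrsp, yet 1.46 higher for Elovl6 and 0.51 higher for Fasn. In 80W replicate 3, Thrsp was 2.10 higher while Scd1 was 0.70 lower. Averaged over the 9 genes, the centred level was 0.31, 0.07, 0.38 and 0.35 in 80W livers, against -0.49, -0.81, 0.05 and 0.15 in 8W livers. So 8W replicates 3 and 4 lay beside 80W replicate 2, and the lowest values were those of 8W replicates 1 and 2.

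**Figure D3:**
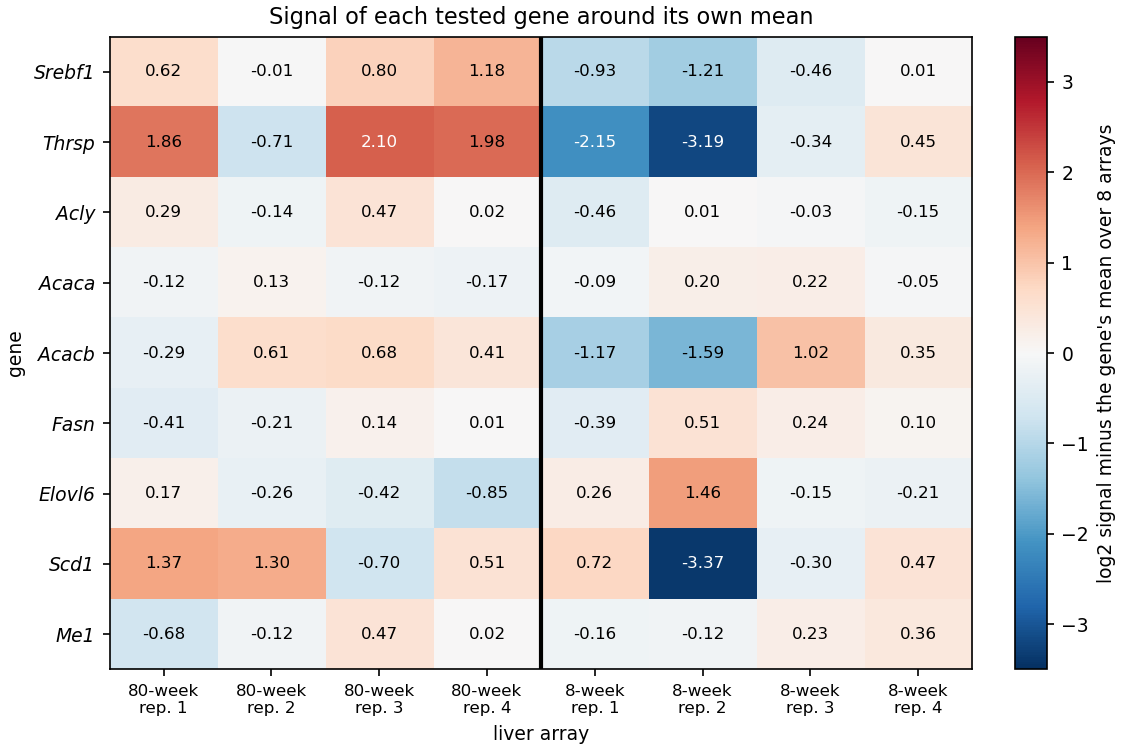
Signal of each tested gene minus its own mean over the 8 arrays, in log2, with 80-week arrays in the left 4 columns and 8-week arrays in the right 4. Red is above and blue is below the gene's mean. The 8-week replicate 2 column holds the lowest values for Scd1 and Thrsp beside the highest for Elovl6 and Fasn, and the Acaca row is pale throughout.

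The genes whose profile over the 8 arrays was closest to the average of the 9 were named by the root mean square difference between centred log2 values. Among those closest were Yipf1 (0.08), the ganglioside synthase gene St3gal5 (0.08), the N-acetylglucosamine kinase gene Nagk (0.08), Sh3glb2 (0.09) and the mitochondrial thioredoxin reductase gene Txnrd2 (0.09). The differences of these 5 ran from 0.44 for Yipf1 to 0.59 for Sh3glb2, with limma adjusted p from 0.326 to 0.421.

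Genes around the pathway were read from 7 lists holding 92 genes outside the 10, of which 88 were tested and 0 passed the threshold. Of 16 tested genes of lipogenic transcription control, 11 were positive, where 52.0% of all tested genes were. The median was 0.25 (0.08 without 8W replicates 1 and 2). At an unadjusted p under 0.05, 4 were higher and 0 lower, where 7.91% of all genes were higher and 6.14% lower. Mlxipl, which encodes the carbohydrate-responsive factor ChREBP, had 5.74, 5.90, 6.17 and 5.99 in 80W livers, against 5.71, 4.99, 5.36 and 5.43 in 8W livers. Its ages did not overlap, though 80W replicate 1 and 8W replicate 1 nearly met, and the difference was 0.58 (SE 0.21, limma adjusted p = 0.300). With the mean of its tested probes it was 0.28. Mlx, of the same list and added after its value was seen, differed by -0.37 with no overlap (limma adjusted p = 0.389). Rxra, the partner receptor of LXR, differed by 0.63, the coactivator gene Ppargc1b by 3.03-fold on the linear scale and the phosphatidate phosphatase gene Lpin1 by 2.43 on the log2 scale (limma adjusted p from 0.291 to 0.305). Without 8W replicates 1 and 2 the log2 differences were 0.56 for Mlxipl, 0.27 for Rxra, 0.64 for Ppargc1b and 0.93 for Lpin1.

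In insulin signalling, 9 of 13 tested genes were positive, with a median of 0.33 (0.02 without 8W replicates 1 and 2), and 5 were higher and 0 lower at an unadjusted p under 0.05, beside 7.91% and 6.14% of all genes. Irs2, an adaptor of the insulin receptor, had 4.71, 4.34, 5.50 and 4.68 in 80W livers, against 3.13, 1.80, 3.91 and 3.65 in 8W livers. The ages did not overlap, and the difference was 1.69 (SE 0.45, limma adjusted p = 0.195). Foxo1 differed by 0.63, Sik1 by 1.01 and the regulatory subunit gene Pik3r1 by 0.95. With those 2 arrays left out the differences were 1.03 for Irs2, 0.39 for Foxo1, 0.70 for Sik1 and 0.62 for Pik3r1. Added after their values were seen, G6pc differed by 1.71 with no overlap and Pck1 by 1.14 (limma adjusted p of 0.322 and 0.410). G6pc was lowest in 8W replicates 2 and 1 (2.36 and 3.80). Insr, Irs1 and Akt1, added likewise, differed by -0.18, -0.19 and -0.30 (limma adjusted p from 0.474 to 0.793). The genes were not sorted by the direction in which insulin moves them, so the count of signs gives no direction for insulin signalling.

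The supply of acetyl-CoA and NADPH gave values of opposite sign. Of 16 tested genes 12 were positive, with a median of 0.23 (0.05 without 8W replicates 1 and 2). At an unadjusted p under 0.05, 1 was higher and 2 were lower, beside 7.91% and 6.14% of all genes. Pklr, the liver pyruvate kinase, differed by 0.94 (SE 0.27, limma adjusted p = 0.231) and the citrate carrier Slc25a1 by 0.41. These were 0.75 and 0.19 without 8W replicates 1 and 2. G6pdx and Pgd, the dehydrogenases of the pentose phosphate route that make NADPH beside Me1, were on the negative side. G6pdx had 0.44, 0.69, -0.13 and 0.21 in 80W livers, against 3.32, 3.85, 0.88 and 1.02 in 8W livers. The groups did not overlap, and 8W replicates 1 and 2 were by far the highest. The difference was -1.96 (SE 0.65, limma adjusted p = 0.279), and -0.65 without those 2 arrays. Pgd differed by -1.20 (limma adjusted p = 0.291), and by -0.45 without them.

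Of 15 tested genes of desaturation and elongation, 11 were positive with a median of 0.37 (0.03 without 8W replicates 1 and 2). At an unadjusted p under 0.05, 2 were higher and 1 lower, beside 7.91% and 6.14% of all genes. Fads1, a desaturase of polyunsaturated fatty acids, differed by 0.92, Elovl5 by 1.17 and Hsd17b12, the ketoreductase of elongation, by 0.63 (SE 0.19, limma adjusted p = 0.252). Leaving out those 2 arrays, Fads1 was 0.33, Elovl5 0.03 and Hsd17b12 0.50. Elovl7 differed by -2.63 (-0.36 without those 2 arrays) and was above background on 1 of 4 arrays in 80W livers and 3 of 4 in 8W livers. Among relatives and partners of the 10 genes, a list that shares members with the one before, 7 of 8 tested were positive with a median of 0.27 (0.03 without 8W replicates 1 and 2), and Me2, Me3, Pnpla5 and Olah were too dim to test. Scd3, a close relative of Scd1, differed by 0.91, and its lowest array was also 8W replicate 2, at -2.02. Scd4 differed by 0.32, and Mlycd, which removes malonyl-CoA, by 0.79. Without 8W replicates 1 and 2 the values were 0.51 for Scd3, 0.23 for Scd4 and 0.02 for Mlycd, and Scd3 was 0.39 as the mean of its tested probes.

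Targets of LXR outside lipogenesis were positive in 7 of 9, with a median of 0.60 (0.13 without 8W replicates 1 and 2). At an unadjusted p under 0.05, 3 were higher and 0 lower, beside 7.91% and 6.14% of all genes. The sterol exporters Abcg5 and Abcg8 differed by 1.04 and 1.08, the phospholipid transfer protein gene Pltp by 0.76 and Lpcat3 by 0.60. Leaving out those 2 arrays gave 0.51 for Abcg5, 0.48 for Abcg8, 0.57 for Pltp and 0.04 for Lpcat3. The cholesterol exporters Abcg1 and Abca1, added after their values were seen, differed by -0.64 and -0.29. In cholesterol synthesis, the programme of the related factor SREBP-2, 11 of 16 were positive with a median of 0.29 (0.32 without 8W replicates 1 and 2). Here too 3 were higher and 0 lower at an unadjusted p under 0.05, beside the same 7.91% and 6.14% of all genes. The synthase genes Hmgcs1 and Fdft1 differed by 0.68 and 0.62 (limma adjusted p of 0.352 and 0.323).

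**Figure D4:**
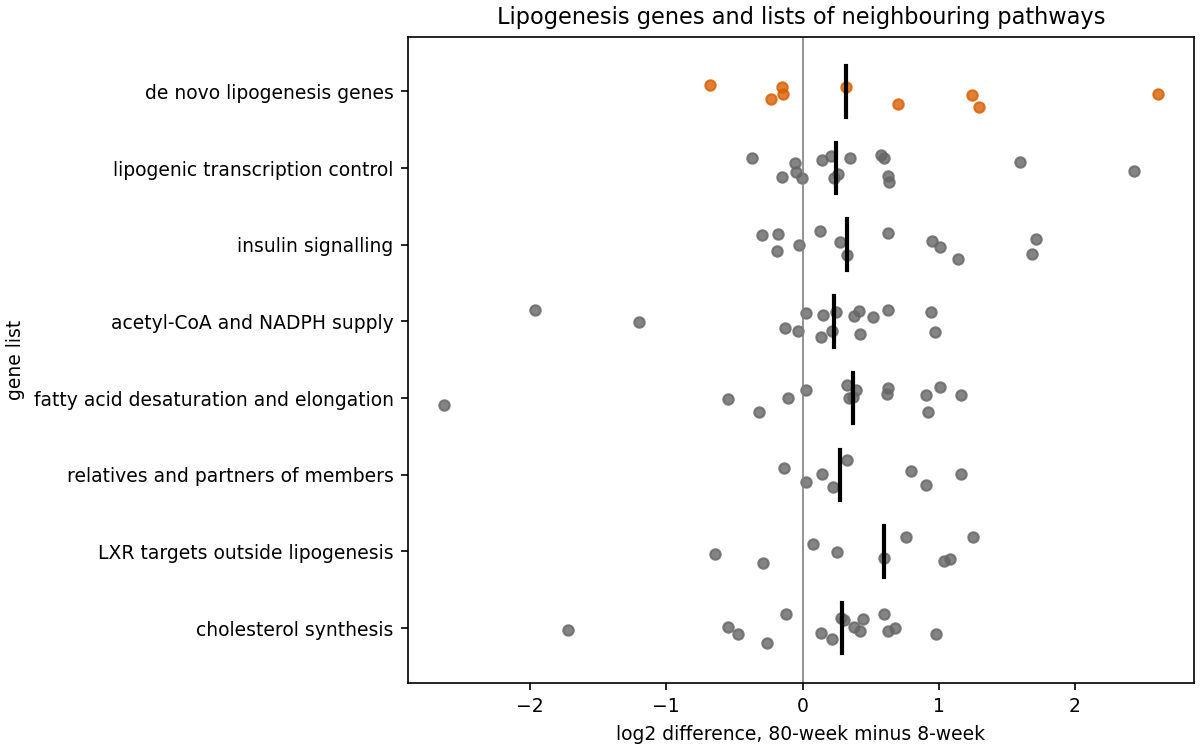
Log2 difference, 80-week minus 8-week, for each tested gene of the lipogenesis set (orange) and of 7 lists of neighbouring pathways (grey), with the median of each list as a black bar. The medians lie between 0.23 and 0.60, and single genes spread from -2.63 to 2.61, with no gene past the threshold.

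Markers of other cells and of liver zones were read beside these values. Lipogenic genes are also active in fat cells, where adiponectin (Adipoq) is a defining marker. Adipoq was above background on 0 of 4 arrays in 80W livers and 1 of 4 in 8W livers. Of 10 adipocyte markers 8 were tested, with a median of 0.17 and 6 positive (-0.07 and 3 positive without 8W replicates 1 and 2). Their summed level was 26.2 to 36.4 times the 75th percentile in 80W livers and 24.6 to 43.8 times in 8W livers. Cfd differed by 3.47 (limma adjusted p = 0.324), with signal above background in 4 of 4 arrays of 80W livers and 1 of 4 of 8W livers. Cidea encodes a lipid droplet protein and was named for the large size of its difference. It ran from 4.19 to 7.44 in 80W livers, against -3.42 to -2.02 in 8W livers, where 3 of 4 arrays were above background. It rose by 8.97 (SE 0.64, limma adjusted p = 0.000752). Among 80W livers it was lowest in replicate 1, whereas Srebf1 and Thrsp were lowest in replicate 2. Pericentral hepatocyte markers were positive in 9 of 9, with a median of 1.95 (1.24 and 8 of 9 without 8W replicates 1 and 2) and a summed level of 879 to 1390 times the percentile in 80W livers and 488 to 1052 times in 8W livers. Slc1a2, a glutamate transporter gene, rose by 4.39 (limma adjusted p = 0.0127), and the size held at 4.36 and 4.41 without 8W replicate 1 or 2, although the adjusted p was then 0.0598 and 0.0539. Glul, the glutamine synthetase gene, was 4.01-fold higher by its means (limma adjusted p = 0.233). It had 3.94, 3.91, 6.48 and 6.20 in 80W livers, against 3.11, 2.95, 3.31 and 3.14 in 8W livers. Most of its difference thus came from 80W replicates 3 and 4. The smallest difference of the pericentral list was 0.07, for Cyp2e1, a name added after its value was seen. Periportal markers were positive in 6 of 10, with a median of 0.07 (-0.48 without 8W replicates 1 and 2), and their summed level was 1428 to 2110 in 80W livers and 699 to 2119 in 8W livers. Among them Cdh1 differed by -3.93 with no overlap (limma adjusted p = 0.120). Its signal in 80W replicates 3 and 4 (-2.86 and -3.45) was too dim to clear background, so the size of this difference is uncertain. The largest positive differences in this list were 1.62 for Sds, 1.14 for Pck1 and 1.05 for Aldh1b1, all with overlap (limma adjusted p from 0.357 to 0.410). Endothelial markers were positive in 2 of 6 with a median of -0.30 (-0.34 without 8W replicates 1 and 2). Their summed levels were 62.0 to 105.0 in 80W livers and 60.2 to 100.6 in 8W livers. Among these markers Lyve1 differed by -1.09 and Pecam1 by -0.62, both with no overlap (limma adjusted p of 0.283 and 0.309). Stab2 differed by 0.47, also with no overlap but with 80W higher, and Kdr by 0.49 with overlap (limma adjusted p of 0.385 and 0.497). Stellate cell markers had a median of 0.00 with 3 of 6 positive (-0.10 and 2 of 6 without 8W replicates 1 and 2). Their summed levels were 168.9 to 244.4 in 80W livers and 128.0 to 194.2 in 8W livers. Reln differed by 1.05 with no overlap and Lrat by 1.34 (limma adjusted p of 0.135 and 0.207). The medians were 0.38 for 6 Kupffer cell markers, -0.36 for 6 neutrophil markers, 0.36 for 4 tested B and T cell markers and -0.43 for 2 tested cholangiocyte markers, with 0 past the threshold in each. These medians were 0.43, -0.29, -0.05 and -0.17 without 8W replicates 1 and 2. The B and T cell markers were then positive in 1 of 4, rather than in 4 of 4. The part of these markers in the Srebf1 and Thrsp values was not tested.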

How the data were processed

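Liver RNA from 8 samples was read on 8 single-colour Agilent arrays (Cy3). The authors' scanner files hold spot intensity values, corrected for background by Feature Extraction 10.7.3.1, per the file headers. Version 9.1 is the one in the submitters' processing notes. The deposited table of intensity values held the same signal as the scanner files (within 1% for 100% of 56605 probes), so it carried no scaling between arrays. It was an alternative, with 0 columns of other samples.

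Processed signals were taken as log2, without the 59 to 97 outlier spots of each array, averaged by probe and set relative to the 75th percentile of the array. A probe was tested when well above background on at least 4 arrays, and a gene was its brightest tested probe. The test was limma 3.58.1 under R 4.3.3, adjusted by Benjamini-Hochberg (threshold 0.05). The fit was tested on simulated data. Intervals are 95%. The number of arrays limits the precision.

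The 10 genes, the lists and the naming rule were chosen with earlier results of these data known. Named are the 10 genes, genes of a list past the threshold or among its 4 smallest p, Cidea, and the 6 genes of most similar profile. Abca1, Abcg1, Mlx, G6pc, Insr, Irs1, Akt1 and Cyp2e1, and Pck1 in the insulin list, were added after their values were seen. Not every name the rule gave is printed, and some items are not reported here. Alternatives were normexp (offset 50), quantile and median scaling, other filters, probe means, kept outlier spots, another variance prior, array weights, the deposited table, a block, and omitted arrays. Promoter windows come from RefSeq (GRCm38.p6) and probe positions from the array files (mm9).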

Additional observations from a re-analysis of the deposited data

Results flagged for a closer look

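A single array stood far from its 3 fellows in 6 of 94 gene and age groups (6.38%), where about 5% would come by chance. Thrsp was 2.97 in 80W replicate 2, against 5.55 to 5.78 in the other 80W arrays. Acaca was 2.90 in 80W replicate 2, where the other 3 lay between 2.59 and 2.65. Fads1 was 3.59 in the same array, with the others at 3.45 to 3.47. In 8W replicate 2, Sik1 was 0.83 (others 1.92 to 2.14), Pik3r1 was -0.16 (others 1.26 to 1.38) and Scd4 was 2.87 (others 3.22 to 3.29). The low Scd1 value of 2.60 in 8W replicate 2 did not reach this limit.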

How the results depend on the processing

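Under 20 alternatives 0 of the tested lipogenesis genes and 0 of the pathway genes passed the threshold. Srebf1 stayed positive throughout, from 0.87 to 1.51 (adjusted p 0.0582 to 0.532), and so did Thrsp, from 1.25 to 3.28 (0.0670 to 0.686). The replicate number is also the slide column. The deviations of same-numbered samples had correlations of 0.03, 0.14, 0.11 and 0.10 for numbers 1 to 4. Differently numbered samples were not compared in this way, so these values do not show whether the numbers mark pairs. No label says that they do, and the main fit did not take them as pairs. With the replicate number as a block the adjusted p was 0.0582 for Srebf1 and 0.0670 for Thrsp, and 53 genes were higher and 17 lower over all genes. The sign turned for Acacb with array weights (-0.0544) and without 8W replicates 1 and 2 (-0.331), and for Me1 without 80W replicate 1 (0.0488), where leaving out 1 array gave -0.335 to 0.0488. The median of the 9 genes was 0.21 to 0.42 with 1 array left out, -0.05 with array weights and -0.16 without 8W replicates 1 and 2. Over all genes, the calls against 58 higher and 5 lower were 20 and 1 with signal required on all arrays, 136 and 36 with array weights, and 12 and 2 without 8W replicates 1 and 2. The lower calls were 8 with quantile scaling, 13 with median scaling, 8 with no filter, 9 with probe means and 8 with a trended and robust prior. With 1 array left out, 25 to 69 were higher and 2 to 14 lower: the higher calls were 25 without 8W replicate 1, 33 without 80W replicate 3 and 35 without 80W replicate 4, and the lower calls were 2 without 8W replicate 1, 3 without 8W replicate 2, 14 without 80W replicate 2 and 8 without 8W replicate 4. Slc1a2 kept its size (4.36 to 4.41) and lost its call without 8W replicate 1 (adjusted p 0.0598), 2 (0.0539) or both (0.202), and Cfd gained one with array weights (0.0206). In data simulated for this comparison with 17565 genes, 28% of genes with a log2 change of 1 were called, 78% at 2 and 90% at 3. The changed genes were drawn at random, and the simulated errors were independent between genes and arrays. These shares therefore do not give the call rate for genes as variable as Thrsp or Scd1.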
